A study of Mus musculus with 45 samples.

Results

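The PRAME family and Oog genes were taken from the gene table by name: protein-coding rows whose symbol starts with Pramel, Pramef or Oog followed by a digit. The rule gave 51 genes of 55357 gene rows, 47 of them Pramel and 4 of them Oog (Oog1, Oog2, Oog3 and Oog4), and no gene with a Pramef symbol was among them. Of these, 24 genes (20 Pramel and 4 Oog) were detected, with 5 or more counts in at least 1 library, and 27 were not.

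Single mouse oocytes, 45 in all, were sequenced 1 per library. In 3 groups the oocyte had been moved into a follicle freed of its own oocyte and cultured there (a reconstituted chimeric follicle): AY, an aged oocyte with young somatic cells (n = 6), AA, an aged oocyte with aged somatic cells (n = 12), and YY, a young oocyte with young somatic cells (n = 11). The control groups were young oocytes after in vitro culture (in vitro young, n = 8) and young oocytes that were not cultured (in vivo young, n = 8). The labels give no strain, age in figures, genotype, animal or meiotic stage, so every p-value measures the spread between oocytes, which may be technical or stem from few animals.

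PRAME, the founding gene of the family, was found as a tumour antigen in human melanoma, and its products are built of leucine-rich repeats. Human PRAME can serve as the substrate-binding subunit of a cullin-2 ubiquitin ligase and can dampen retinoic acid receptor signalling, and mouse Pramel7 in embryonic stem cells leads the DNA methylation factor UHRF1 to that ligase. In the mouse the family has grown by duplication into clusters of similar genes, many of them transcribed in germ cells. The Oog genes (oogenesins) are members transcribed in growing oocytes, and the roles of most single Pramel genes in the oocyte are not settled.

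Of the 24 detected genes, 19 had an entry in the RefSeq promoter table (GRCm38.p6), which runs from 250 bases before to 50 bases after the start site, and Pramel12, Pramel28, Pramel34, Pramel47 and Pramel51 are named only. The sequences of 6 genes are shown because the results turn on them. Pramel27 was high where Oog3 was absent, Pramel38 was found where Pramel48 was present, Pramel15 had the smallest p of the level comparisons, and Oog4 was the gene called in YY against in vitro young. Capitals mark each E-box (CANNTG, the motif class bound by basic helix-loop-helix factors such as FIGLA, which drives oocyte genes). Sequences read 5′ to 3′ on the gene's strand.
Oog3, chr4:144162602-144162901 (- strand): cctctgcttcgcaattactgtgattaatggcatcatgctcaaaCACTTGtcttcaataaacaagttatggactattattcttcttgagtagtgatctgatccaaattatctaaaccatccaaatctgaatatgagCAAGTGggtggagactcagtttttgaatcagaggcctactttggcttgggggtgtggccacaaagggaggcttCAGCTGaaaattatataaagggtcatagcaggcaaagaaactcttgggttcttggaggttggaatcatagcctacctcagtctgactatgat
Pramel27, chr4:143846247-143846546 (+ strand): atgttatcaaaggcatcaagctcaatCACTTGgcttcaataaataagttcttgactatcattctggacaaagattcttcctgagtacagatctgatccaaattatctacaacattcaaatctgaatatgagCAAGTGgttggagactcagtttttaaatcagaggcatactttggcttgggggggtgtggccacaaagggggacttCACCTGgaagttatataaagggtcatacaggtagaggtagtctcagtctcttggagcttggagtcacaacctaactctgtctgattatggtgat
Pramel48, chr5:95456556-95456855 (+ strand): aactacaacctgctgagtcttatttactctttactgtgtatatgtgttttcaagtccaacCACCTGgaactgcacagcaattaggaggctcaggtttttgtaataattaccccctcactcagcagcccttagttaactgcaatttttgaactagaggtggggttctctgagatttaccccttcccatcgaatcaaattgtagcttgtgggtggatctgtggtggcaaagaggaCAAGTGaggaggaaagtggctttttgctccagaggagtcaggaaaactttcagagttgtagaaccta
Pramel38, chr5:94160152-94160451 (+ strand): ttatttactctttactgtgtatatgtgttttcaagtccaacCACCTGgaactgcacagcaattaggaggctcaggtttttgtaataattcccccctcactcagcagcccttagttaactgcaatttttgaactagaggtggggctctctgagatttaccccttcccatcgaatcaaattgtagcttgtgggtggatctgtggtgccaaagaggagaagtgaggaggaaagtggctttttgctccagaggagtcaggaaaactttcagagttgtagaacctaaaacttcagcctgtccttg
Pramel15, chr4:144377884-144378183 (- strand): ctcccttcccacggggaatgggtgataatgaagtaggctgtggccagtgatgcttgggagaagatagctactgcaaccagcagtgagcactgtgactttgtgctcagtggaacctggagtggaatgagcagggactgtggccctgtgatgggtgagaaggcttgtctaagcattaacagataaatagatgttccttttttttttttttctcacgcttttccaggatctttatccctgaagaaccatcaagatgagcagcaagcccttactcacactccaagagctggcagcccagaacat
Oog4, chr4:143450275-143450574 (- strand): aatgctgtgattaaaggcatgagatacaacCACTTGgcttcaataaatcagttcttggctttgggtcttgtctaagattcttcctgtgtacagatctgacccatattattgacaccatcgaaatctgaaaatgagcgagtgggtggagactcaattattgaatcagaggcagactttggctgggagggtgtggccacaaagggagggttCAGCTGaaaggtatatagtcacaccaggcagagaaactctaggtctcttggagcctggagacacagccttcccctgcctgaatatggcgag

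Oog3 and Pramel27 were 76.4% identical over this window and both hold 3 E-boxes, while Pramel38 and Pramel48 were 86.8% identical. The closest pair was Pramel26 and Oog2 at 93.1%, and Pramel25 and Pramel29 of the same cluster were 85.4% identical. Pramel15 had no E-box, and its highest identity to another of the 19 promoters was 56.8% (Pramel14). It was not the least alike, since Pramel21 and Pramel22 reached at most 53.7% and Pramel13 at most 53.4%. An E-box was present in 18 of 19 promoters (94.7%) against 72.3% of 32851 mouse promoters of the same length. TAATTG, a sequence bound by the oocyte homeobox factor NOBOX, was present on either strand in 11 of 19 (57.9%) against 8.0%, TAATTA in 1 of 19 (5.26%) against 5.29%, and TATAAA in 5 of 19 (26.3%) against 13.6%. TATATA, which can overlap TATAAA, was in 12 of 19 (63.2%) against 5.67%, and GGTGTGGC in 11 of 19 (57.9%) against 2.8%, both searched on either strand and chosen after the sequences were seen. Many of these promoters are close in sequence, so the shares are not independent observations.

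Total counts per library ran from 418703 to 2201980. The 12 oocyte marker genes summed to between 15900 and 32100 CPM over the 45 libraries (counts scaled to a fixed library total, CPM, here without further scaling), with none at 0 throughout, whereas the 6 immune markers summed to at most 9.55 CPM and the 8 theca and stroma markers to at most 9.74 CPM. The 6 endothelium and blood markers summed to 15.4 to 127 CPM, most of it Pecam1, with Cdh5 and Hbb-bs at 0 in all 45 libraries. The 15 granulosa markers summed to 876 to 1420 CPM in AY, 672 to 1310 CPM in AA, 545 to 828 CPM in YY, 558 to 1040 CPM in in vitro young and 441 to 955 CPM in in vivo young, with Amh at 0 in all 45 libraries. Most of the granulosa sum was Serpine2 in every group. The libraries fell into 10 patterns by the presence of 9 all-or-nothing genes outside the family, with 2 patterns in AY, 2 in AA, 4 in YY, 4 in in vitro young and 3 in in vivo young. Nothing in the labels says whether a pattern is an animal. AA, AY and YY shared no pattern with each other, so group and pattern cannot be told apart in comparisons among them. YY and in vitro young had patterns in common, as did in vitro and in vivo young. Oog3 had the same state in all libraries of a pattern, and so did Pramel48. For Oog3 this follows from how patterns were made, since Gm4350, a pseudogene with the same state, is among the 9 genes. Each group also holds its own range of library numbers, so group and numbering series cannot be told apart.

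The 51 genes lie mostly in 2 clusters. On chromosome 4, 24 genes lie between 143120998 and 144135034 (mm39) and 16 of them were detected, together with Pramel32 at 88545557 to 88552648 on the same chromosome. On chromosome 5, 18 genes lie between 93629688 and 95884032, and 5 were detected (Pramel33, Pramel34, Pramel38, Pramel47 and Pramel48). Chromosome 12 holds Oog1 and Pramel51, both detected. None of the 2 genes on chromosome 2 (Pramel6 and Pramel7) or the 1 on the X chromosome (Pramel3) was detected. Pramel7, the member tied to UHRF1, had 1 count in 1 library and 0 in the other 44.

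Of the 27 undetected genes, 11 had 0 counts in all 45 libraries and 16 reached 1 to 4 counts at most. The detection limit had close neighbours on either side: Pramel16 and Pramel17 reached 4 counts, and Pramel21 and Pramel28 reached 5. Many members share sequence, and how reads that fit several genes were counted was not stated. In the GENCODE M21 transcripts, every 75-base stretch of Pramel32, Pramel12, Oog4, Pramel23, Pramel15 and Pramel13 occurs in no other gene. The share of such stretches was 86.4% for Oog3, 64.8% for Pramel27, 52.1% for Pramel34, 26.0% for Pramel48, 25.8% for Pramel47, 22.6% for Pramel38 and 7.62% for Pramel33, and 80.4% of the stretches of Oog1 are also found in Gm2042, so the counts of these last genes are uncertain.

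The family made up about 1 in 100 of all counts. Its share was 1.09% ± 0.0285 in AY, 1.44% ± 0.206 in AA, 1.08% ± 0.181 in YY, 1.32% ± 0.215 in in vitro young and 1.33% ± 0.152 in in vivo young (mean ± SD over libraries). All 6 AY oocytes lay between 1.06% and 1.14%, below each of the 12 AA oocytes, which ran from 1.17% to 1.82%. Oog3, a large part of the sum where present, was at 0 in 4 of 6 AY oocytes. The 3 AA oocytes without Oog3 had the lowest shares of their group, 1.17% to 1.21%. Within AY, the 2 oocytes with Oog3 had 1.06% and 1.09%, not above the 4 without it. The part of Oog3 in the difference was not tested. YY oocytes spanned 0.812% to 1.42% and overlapped every other group.

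**Figure D1:**
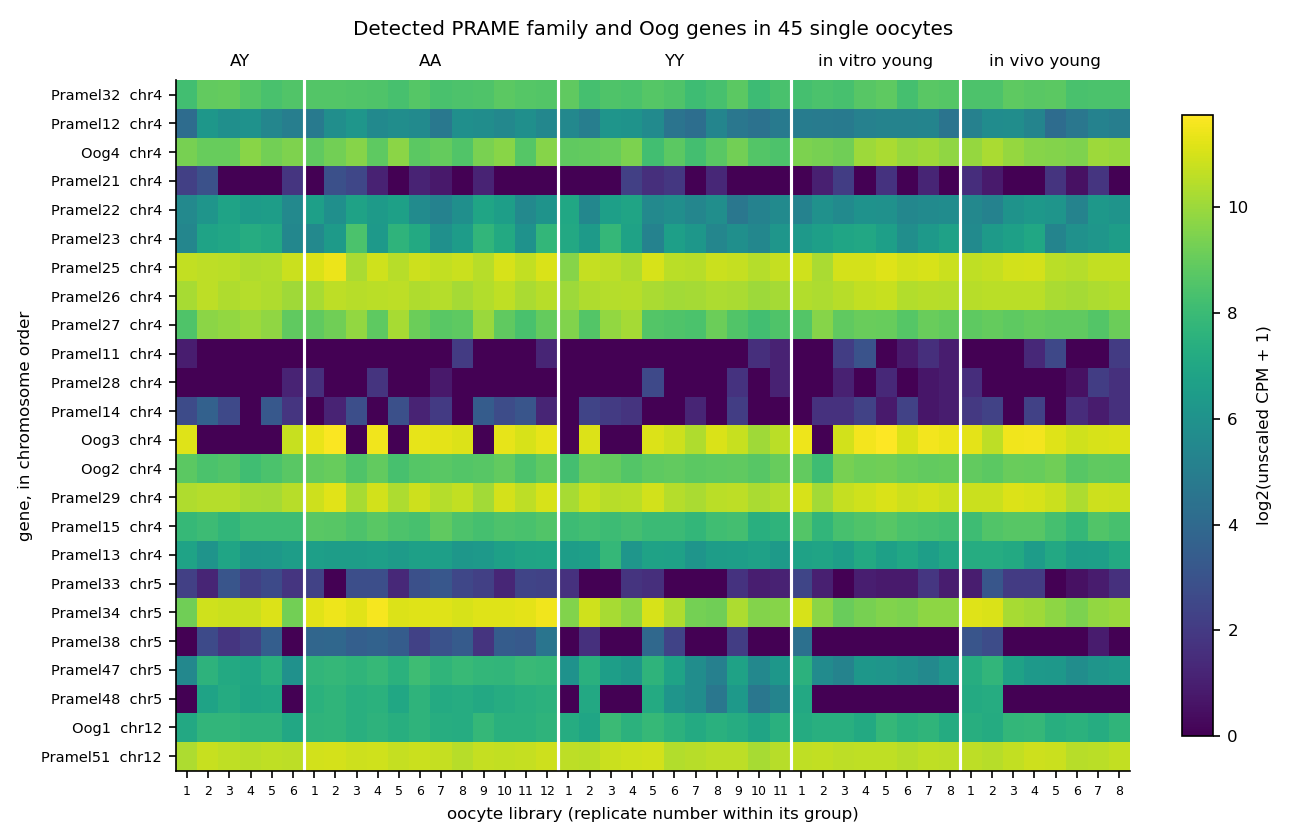
Level of the 24 detected genes (rows, in order along chromosomes 4, 5 and 12) in each of 45 oocyte libraries (columns, by group and replicate number), as log2(unscaled CPM + 1), where dark is 0. Of the rows, 16 are lit in all 45 libraries, Oog3 drops to 0 in 11 libraries and Pramel48 in 18, and the other 6 rows have few counts, at most 25 (Pramel38).

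Most members were present in every oocyte. Of the 24, 16 had 5 or more counts in all 45 libraries, and the other 8 were Oog3, Pramel48 and 6 genes of low level (Pramel38, Pramel14, Pramel33, Pramel21, Pramel11 and Pramel28). An AY oocyte held 17 to 20 detected members (18.2 ± 1.17, SD, n = 6), an AA oocyte 18 to 20 (19.2 ± 0.718, n = 12), a YY oocyte 16 to 20 (17.6 ± 1.21, n = 11), an in vitro young oocyte 16 to 20 (17.5 ± 1.2, n = 8) and an in vivo young oocyte 17 to 21 (17.9 ± 1.46, n = 8). These ranges overlap in every pair of groups. The difference of 1.53 members between AA and YY was 0.795 with counts thinned to the smallest library, 0.621 with a limit of 10 counts and 3.98 with a limit of 1 count.

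Per length of transcript, Pramel25 and Oog3 were the most abundant members, at 938 and 922 CPM per kb (mean of the 5 group means, longest GENCODE M21 transcript). They were followed by Pramel26 at 742, Pramel29 at 666, Pramel51 at 653 and Pramel34 at 512 CPM per kb. The middle of the order held Oog4 at 355, Pramel27 at 315, Oog2 at 233, Pramel15 at 218 and Pramel32 at 197.6 CPM per kb. Oog1, at 72.9 CPM per kb, was the least abundant of the 4 Oog genes, and the order ended with Pramel28 at 0.349 CPM per kb. The top genes include members of the clusters on chromosomes 4, 5 and 12.

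Levels over the groups are given here as TMM-scaled CPM (mean ± SD over libraries), and those that passed a test between groups are named with the comparisons. Pramel34 stood at 1486 ± 722 in AY, 2532 ± 317 in AA, 1064 ± 504 in YY, 899 ± 498 in in vitro young and 1317 ± 641 in in vivo young, so its highest group mean was in AA. Oog4 was at 629 ± 118 in AY, 611 ± 182 in AA, 437 ± 119 in YY, 881 ± 241.2 in in vitro young and 956 ± 188 in in vivo young, with its lowest mean in YY. Pramel25 stood at 1490 ± 174.5 in AY, 1892 ± 421 in AA, 1476 ± 324.5 in YY, 1902 ± 339.5 in in vitro young and 1725 ± 251 in in vivo young. Pramel29 stood at 1304 ± 118 in AY, 1734 ± 418 in AA, 1412 ± 242.2 in YY, 1822 ± 359.5 in in vitro young and 1876 ± 319 in in vivo young. For both, AY and YY were the groups of lower mean. Pramel51 (chromosome 12) was highest in AA, at 1814 ± 184, against 1515 ± 171 in AY, 1509 ± 249.5 in YY, 1537 ± 79.2 in in vitro young and 1639 ± 161 in in vivo young. Pramel32, which lies outside the clusters, had 391.5 ± 84.5 in AY, 388 ± 34.4 in AA, 341 ± 63.5 in YY, 369 ± 63.7 in in vitro young and 389 ± 54.9 in in vivo young. The ranges of its 5 groups all overlapped, and no comparison called it. Among the Oog genes, Oog2 had 362 ± 52.9 in AY, 437 ± 63.7 in AA, 434 ± 63.0 in YY, 499.6 ± 112 in in vitro young and 503 ± 58.1 in in vivo young. Oog1 had 176 ± 37.7 in AY, 190.4 ± 23.5 in AA, 166 ± 42.5 in YY, 173 ± 31.1 in in vitro young and 187 ± 29.9 in in vivo young. Neither Oog1 nor Oog2 was called in any comparison.

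Oog3 (ENSMUSG00000050810, chromosome 4, 143884127 to 143889233, mm39) was the most extreme of the on/off genes: 0 counts in 11 libraries and 967 to 4608 counts in 34, with no library between. Its transcript was present in 2 of 6 AY, 9 of 12 AA, 8 of 11 YY, 7 of 8 in vitro young and 8 of 8 in vivo young oocytes. The libraries at 0 were AY replicates 2 to 5, AA replicates 3, 5 and 9, YY replicates 1, 3 and 4 and in vitro young replicate 2. Where present it stood at 1715 to 2277 CPM in AY, 2123 to 3301 in AA, 1063 to 2257 in YY, 1987 to 3438 in in vitro young and 1521 to 2957 in in vivo young (unscaled CPM), so its levels differed by far less than its gap. Every group except in vivo young held both states.

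Pramel48 (ENSMUSG00000070677, chromosome 5, 95604665 to 95633446, mm39) was the other on/off gene, with 0 counts in 18 libraries and 16 to 194 in 27. It was present in 4 of 6 AY, 12 of 12 AA, 8 of 11 YY, 1 of 8 in vitro young and 2 of 8 in vivo young oocytes. Absent libraries were AY replicates 1 and 6, YY replicates 1, 3 and 4, in vitro young replicates 2 to 8 and in vivo young replicates 3 to 8. In all 21 libraries outside YY replicates 6 to 11 that contained it, its level was 110.5 to 205 CPM, and in those 6 YY libraries it was 24.2 to 78.0 CPM (unscaled). The gene thus had 3 separate ranges rather than 2.

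A gap of at least 3 on the log2(CPM + 1) scale, with 2 or more libraries on each side, was found for 8 of 11829 protein-coding genes (0.0676%), and 2 of the 24 detected members were among these 8. The same 2 members met the rule at a gap of 2 (12 genes, 0.101%) and at a gap of 4 (3 genes, 0.0254%). The states of the 2 genes crossed. Both were present in 20 libraries, only Oog3 in 14, only Pramel48 in 7 and neither in 4. All 3 AA libraries without Oog3 contained Pramel48, as did all 4 AY libraries without Oog3, and no AY library contained both, whereas the 3 YY libraries without Oog3 also lacked Pramel48. Among other protein-coding all-or-nothing genes, Mtfr2, a mitochondrial fission regulator, was the most like Oog3, with another state in 7 of 45 libraries, followed by Bfsp1 (a lens filament protein) and Tmem14c (a mitochondrial porphyrin carrier), with another state in 18 each. The processed pseudogene Gm4350 on chromosome 14, which shares 13.6% of the 75-base stretches of Oog3, had its state in all 45 libraries. No gene matched Pramel48. The nearest were Oog3 and Gm4350, with another state in 21 libraries each, and Mtfr2, 4930562C15Rik and the lncRNA Gm34922, with another state in 22 each.

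No member passed the test for a different share of oocytes with the gene present (Fisher's exact test, 2-sided, Benjamini-Hochberg over 11829 protein-coding genes), in any of the 5 comparisons. The background was 3 genes called in AA against YY (0.0254%) and 0 genes (0.0%) in each other comparison. Outside AA against YY, the groups were too small for a lone gene to pass this adjustment, even with full separation. The lack of calls in those comparisons therefore does not show equal presence. Pramel38 came nearest. It had 5 or more counts in 10 of 12 AA against 1 of 11 YY oocytes (Fisher's exact p = 0.000644, adjusted 0.346), and in 1 of 6 AY against 10 of 12 AA oocytes (Fisher's exact p = 0.0128, adjusted 1.0). Pramel14 was found in 3 of 6 AY against 0 of 11 YY oocytes (Fisher's exact p = 0.0294, adjusted 1.0). Pramel48 was found in 8 of 11 YY against 1 of 8 in vitro young oocytes (Fisher's exact p = 0.0198, adjusted 1.0). No member had an unadjusted Fisher's exact p under 0.05 between in vitro and in vivo young oocytes, and Oog3 had none in any comparison.

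Several members of the chromosome 4 cluster followed the state of Oog3, given without a test since the libraries are sorted here by a measured value. Pramel27 (ENSMUSG00000029451, 143573067 to 143580207, mm39) was highest where Oog3 was absent. Its 11 highest libraries of 45 were exactly the 11 without Oog3, at 724 to 1171 CPM, against 295 to 596 CPM in the 34 libraries with Oog3 (unscaled). Of 5331 protein-coding genes with 5 or more counts in every library, Pramel27 alone (0.0188%) overlapped the Oog3 state in full. It held within groups: 837 to 1048 CPM without and 359 to 474 with Oog3 in AY, 925 to 1171 without and 328 to 596 with it in AA, and 724 to 1159 without and 295 to 548 with it in YY. In vitro young had 1 library without Oog3, at 792 CPM, against 386 to 533 CPM in its other 7. Within each of these groups, libraries with and without Oog3 never shared a pattern. The contrasts within groups, here and below, are thus also contrasts between patterns, and oocytes of a pattern may not be independent.

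Pramel22, which shares 35.5% of its 75-base stretches with Pramel27, moved the same way: 9 of the 11 libraries without Oog3 were among its 11 highest, as large an overlap as 5 of 5331 genes reached (0.0938%). Oog2 moved the other way, with 9 of the 11 among its lowest (0.0938%), and so did Pramel25, with 8 of the 11 among its lowest (0.338%). In AA, Pramel25 lay at 1237 to 1439 CPM without and 1622 to 2697 CPM with Oog3, without overlap. Its ranges did not overlap in AY and in vitro young either. In YY they did, at 774 to 1548 CPM without and 1371 to 2087 CPM with Oog3. Among groups with both states, the ranges of Oog2 overlapped in AA and YY only, and those of Pramel22 in in vitro young only. Oog3 shares no 75-base stretch with Pramel27, Pramel22, Oog2 or Pramel25 in the reference transcripts. Pramel12 and Pramel23 (7 of the 11 among the highest) and Pramel13 and Pramel29 (7 among the lowest) reached an overlap that 93 genes (1.74%) also reached. Pramel15, Oog4 and Pramel26 in the same cluster did not follow the state, with 4, 1 and 2 of the 11 at most at either end (52.1% of genes reached 4), and neither did Pramel51 and Oog1 on chromosome 12 or Pramel34 and Pramel47 on chromosome 5, with at most 4.

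Most chromosome 5 members detected went with Pramel48 instead. The 21 libraries with over 100 CPM of Pramel48 held 1807 to 3043 CPM of Pramel34 and 124 to 274.2 CPM of Pramel47. In the 6 YY libraries with less Pramel48, Pramel34 lay at 584 to 1282 CPM and Pramel47 at 33.3 to 110.0 CPM. The 18 libraries without Pramel48 held 531 to 1201 CPM of Pramel34 and 36.7 to 107.5 CPM of Pramel47 (all unscaled). The level of 100 CPM was chosen after the values were seen. By presence alone, 14 of the 18 libraries without Pramel48 were among the 18 lowest for Pramel34, and 14 for Pramel47, an overlap that 27 of 5331 genes (0.506%) reached. Pramel38 had 0 counts in 17 of the 18 libraries without Pramel48 and 1 count in the other, against 5 or more counts in 15 of the 27 libraries with it. Pramel33, the other detected chromosome 5 member, had 0 counts in 3 of the 18 libraries without and in 5 of the 27 with Pramel48, and reached at most 4 counts without it and 11 with it. Pramel47 holds 37.8% of the 75-base stretches of Pramel34, and Pramel34 holds 41.2% of those of Pramel47, and larger shares lie in 2 relatives outside the name rule. Gm6205 and Gm6367 hold 69.7% and 66.5% of the stretches of Pramel47 and 40.5% and 39.7% of those of Pramel34, and both had 5 or more counts in all 45 libraries. Reads of these 4 genes are thus not fully separable. The same holds for Pramel48 and Pramel38. Pramel48 shares 71.6% of its stretches with Gm3286 (at most 3 counts) and 64.6% with E330014E10Rik (11 to 304 counts per library). Pramel38 shares 69.0% of its stretches with Gm16513 (at most 1 count).

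**Figure D2:**
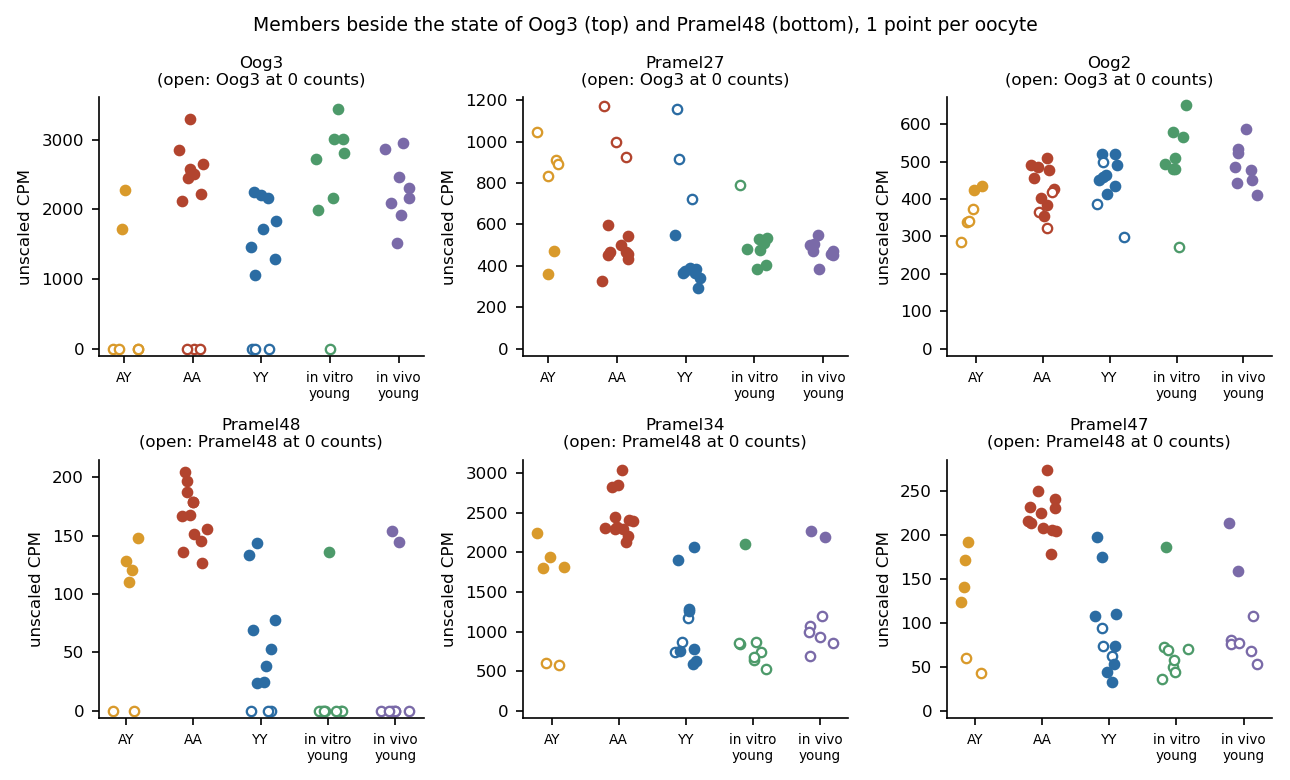
Unscaled CPM per oocyte (points) of 6 members in the 5 groups, with open points for libraries at 0 counts of Oog3 (top row) or of Pramel48 (bottom row). All 11 open Pramel27 points (724 to 1171 CPM) lie above all 34 filled ones (295 to 596 CPM), and the open Pramel34 points stop at 1201 CPM.

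Levels were compared with edgeR's quasi-likelihood test on counts and TMM-scaled library sizes (trimmed mean of M values) for the 18 members that passed the filter on low counts, of the 24 detected. AA and YY differ in the age of the oocyte and in that of the somatic cells. These ages cannot be told apart in AA against YY, nor can they be told from the patterns described above. In this comparison, 9 of 18 members were higher in AA and 0 lower, where 27.5% of all 8533 genes tested were called, 12.8% higher and 14.7% lower. The median log2 change was 0.36 over the 18 members and -0.01 over all genes. The called members lie on chromosomes 4, 5 and 12: Pramel15, Pramel34, Pramel47, Pramel26, Pramel51, Pramel48, Pramel25, Oog4 and Pramel29. These calls are not independent observations. Pramel34, Pramel47 and Pramel48 went together across libraries, Pramel34 and Pramel47 share sequence, and so do Pramel25 and Pramel29.

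Pramel15 (ENSMUSG00000073721, chromosome 4, 144099330 to 144104503, mm39) had the smallest p. It ran from 320.5 over a median of 364 to 487 CPM in AA, against 160.0, 261 and 289 CPM in YY. The groups did not overlap, as was so for 0.645% of all genes tested. The mean was 385 ± 54.5 CPM in AA (SD, n = 12) against 245.5 ± 42.7 CPM in YY (n = 11), and the log2 change was 0.65 (SE 0.09, adjusted p = 2.08e-06, edgeR). It is among the 6 members with no 75-base stretch shared with another gene.

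Pramel34 (ENSMUSG00000070686, chromosome 5, 93782852 to 93819410, mm39) was the other member without overlap. Its lowest, median and highest values were 2155, 2414 and 3206 CPM in AA, against 547, 851 and 2063 CPM in YY. The log2 change was 1.25 (SE 0.24, edgeR adjusted p = 0.000294). Pramel47 (chromosome 5) had 184.5, 230.8 and 280.3 CPM in AA, against 31.2, 71.6 and 197.8 CPM in YY, and changed by 1.35 (SE 0.25, edgeR adjusted p = 0.000273). Of the 11 YY oocytes, 1 reached the AA range. Pramel48 itself had 130.4, 172 and 215 CPM in AA, against 0, 36.8 and 143.4 CPM in YY (log2 change 1.79, SE 0.54, edgeR adjusted p = 0.0147).

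The 5 remaining calls were smaller. Pramel26 averaged 1428 ± 154 CPM in AA against 1172 ± 134 CPM in YY (log2 change 0.28, SE 0.07, edgeR adjusted p = 0.00346). Pramel51 averaged 1814 ± 184 CPM in AA against 1509 ± 249.5 CPM in YY, a change of 0.26 (adjusted p = 0.0105). Oog4 averaged 611 ± 182 CPM in AA against 437 ± 119 CPM in YY, a change of 0.48 (adjusted p = 0.0235). The other two, Pramel25 and Pramel29, changed by 0.35 (adjusted p = 0.0233) and 0.29 (adjusted p = 0.0358). All these had overlapping groups.

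Oog3, Oog2 and Oog1 were not called in AA against YY, with log2 changes of 0.70 (SE 1.02), 0.01 (SE 0.09) and 0.18 (SE 0.11). Pramel23 (0.75, SE 0.36, adjusted p = 0.128) and Pramel12 (0.46, adjusted p = 0.142) missed the threshold and passed it without YY replicate 3, at adjusted p = 0.0291 and 0.0379. The call of Pramel29 was lost in 12 of 23 fits that left out 1 library. Granulosa markers moved with this comparison (4 of 6 tested higher in AA, 0 lower, against 12.8% and 14.7% of all genes). Their part in the result was not tested. With the libraries of a pattern summed, 0 of 21 members and 2 of 11572 genes were called (Pramel15 log2 change 0.61, adjusted p = 0.163). Against YY replicates 1 to 5 alone, 1 member was called (Pramel15), near the 5.43% of all genes called there, with a median log2 change of 0.17 over the members. Against YY replicates 6 to 11 alone, 15 members were called where 38.1% of all genes were, with a median of 0.52.

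**Figure D3:**
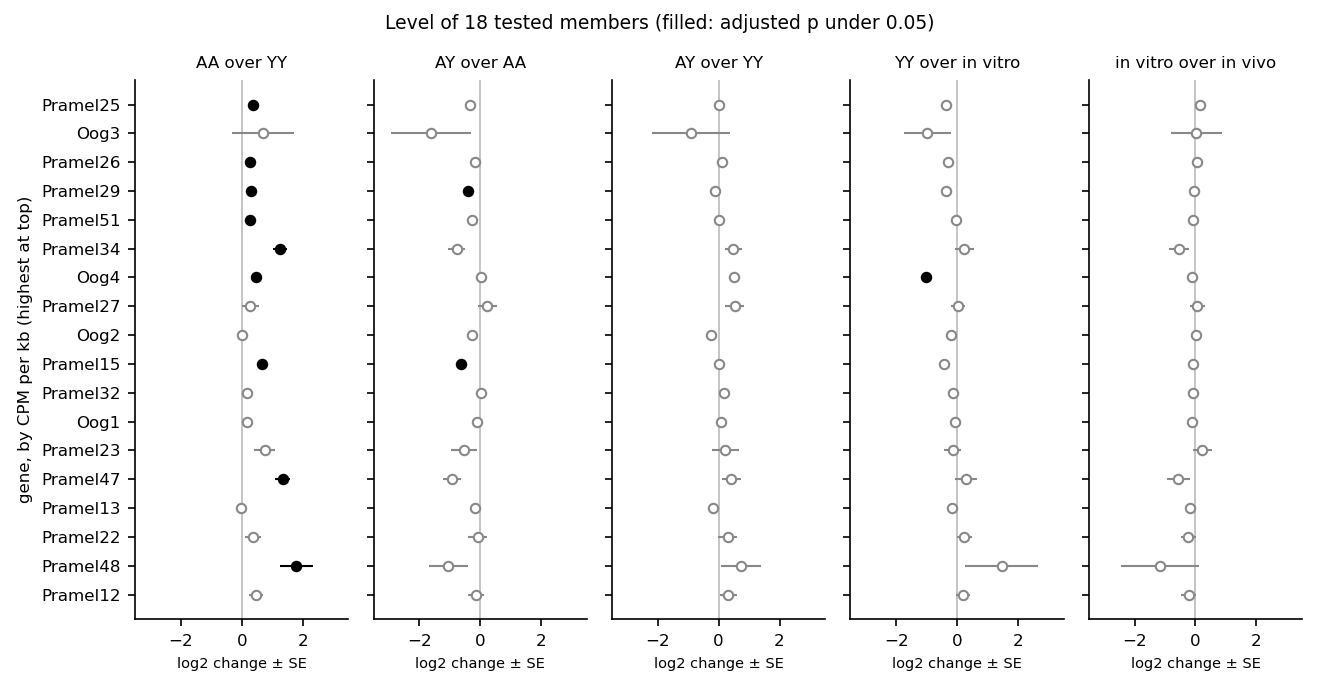
Log2 change ± SE (edgeR) of the 18 tested members in the 5 comparisons, each the first-named group over the second, with filled points at adjusted p under 0.05. Filled points lie to the right in AA over YY (9 of 18) and to the left in AY over AA (2), and the wide bars belong to Oog3 and Pramel48.

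Whether young somatic cells alter an aged oocyte was addressed by AY against AA. Here 0 of 18 members were higher and 2 lower in AY, where 6.59% of 8533 genes were called, 3.52% as higher and 3.07% as lower. The median log2 change was -0.27 over the members and 0 over all genes. The AA libraries enter this comparison and AA against YY, so the 2 are not independent.

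Pramel15 fell in AY. Its lowest, median and highest values were 207, 263.5 and 276.7 CPM in AY, against 320.5, 364 and 487 CPM in AA, with no overlap (0.832% of all genes tested). The mean was 250.2 ± 28.7 CPM in AY and 385 ± 54.5 CPM in AA (n = 6 and 12), a log2 change of -0.63 (SE 0.11, edgeR adjusted p = 0.00079). It was called in all 18 fits that left out 1 library. With libraries of a pattern summed its log2 change was -0.64 (SE 0.19) with an adjusted p of 0.572 in edgeR, and 0 members were called.

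Pramel29 averaged 1304 ± 118 CPM in AY and 1734 ± 418 CPM in AA, a log2 change of -0.41 (SE 0.13, edgeR adjusted p = 0.0448). That call held in 4 of 18 fits that left out 1 library. Pramel34 had 560.5, 1796 and 2238 CPM (lowest, median and highest) in AY, against 2155, 2414 and 3206 CPM in AA, a log2 change of -0.77 that was not called (adjusted p = 0.0994). Pramel47 (-0.93, adjusted p = 0.0607), Pramel48 (-1.05, adjusted p = 0.347) and Oog3 (-1.60, SE 1.31, adjusted p = 0.516) were not called either. The 2 AY oocytes without Pramel48 held the 2 lowest Pramel34 values of the group, and 1 AY oocyte reached the AA range.

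AY against YY compares aged and young oocytes in young somatic cells. No member was called by edgeR (0 of 18, with 2 at an unadjusted p under 0.05, Oog4 and Oog2), by DESeq2 or by limma voom, where edgeR called 1.62% of 8533 genes, 0.715% as higher and 0.902% as lower. Groups of no member were without overlap (0.234% of all genes). The median log2 change was 0.16 over the members, and it was -0.12 against YY replicates 1 to 5 alone and 0.27 against YY replicates 6 to 11 alone. Oog4 averaged 629 ± 118 CPM in AY and 437 ± 119 CPM in YY (log2 change 0.52, SE 0.19, edgeR adjusted p = 0.191). Oog2 averaged 362 ± 52.9 CPM in AY and 434 ± 63.0 CPM in YY (-0.27, SE 0.11, adjusted p = 0.246). Pramel15 had the same level within its spread, 250.2 ± 28.7 CPM in AY and 245.5 ± 42.7 CPM in YY (0.02, SE 0.11, adjusted p = 0.956). Against YY replicates 6 to 11 alone, 2 members were called, Pramel27 and Pramel12, near the 10.3% of all genes called there.

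**Figure D4:**
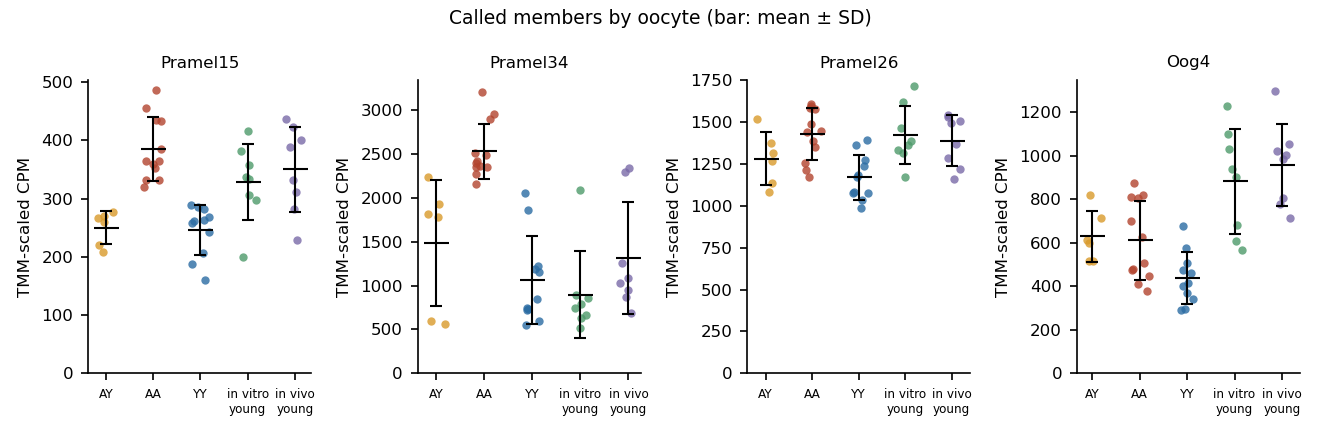
TMM-scaled CPM of 4 members per oocyte (points) in the 5 groups, with mean ± SD (bars). The 12 AA points of Pramel15 (from 320.5 CPM up) lie above all AY and YY points, and the YY points of Oog4 (290 to 678 CPM) lie below all in vivo young points (from 712 CPM up).

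Transfer into another follicle, among young cultured oocytes, was addressed by YY against in vitro young. Oog4 (ENSMUSG00000047799, chromosome 4, 143163734 to 143176894, mm39) was the 1 member called of 18, where 2.48% of 8749 genes were called, 0.777% as higher and 1.7% as lower. Its lowest, median and highest values were 290, 414.5 and 678 CPM in YY, against 565, 920 and 1227 CPM in in vitro young, so the groups overlapped in part, as they did for every tested member (0.103% of all genes did not). The mean was 437 ± 119 CPM in YY and 881 ± 241.2 CPM in in vitro young (n = 11 and 8), a log2 change of -1.02 (SE 0.16, edgeR adjusted p = 0.000445). Of 12 oocyte markers, 5 were also lower in YY (Zp2, Gdf9, Zp3, Padi6 and Nlrp5) and 0 higher. The 12 summed to 15900 to 21800 CPM in YY and 18100 to 27500 CPM in in vitro young with none at 0 throughout, and their part in the result was not tested. The call of Oog4 was lost only with the libraries of a pattern summed (log2 change -0.90, SE 0.19, adjusted p = 0.11), of the 12 other settings tried.

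No other member was called in YY against in vitro young. The median log2 change over the 18 was -0.13, and it turned with the YY libraries used: 0.10 with YY replicates 1 to 5 alone and -0.36 with YY replicates 6 to 11 alone. Pramel15 (-0.43, edgeR adjusted p = 0.061) and Pramel26 (-0.28, adjusted p = 0.0624) missed the threshold, and Pramel29 (-0.37, adjusted p = 0.0697) and Pramel25 (-0.37, adjusted p = 0.092) did so too. Pramel48 was present in more YY than in vitro young oocytes, but its level was not called (log2 change 1.46, SE 1.21, adjusted p = 0.579), nor was that of Oog3 (-0.97, SE 0.77, adjusted p = 0.56).

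Culture itself was addressed by in vitro young against in vivo young. No member was called, and none had an unadjusted p under 0.05 in edgeR, while DESeq2 and limma voom called 0 as well. The background was 0.137% of 8749 genes, 0.126% as higher and 0.0114% as lower, with 0.183% of genes in groups that did not overlap and no member among them, and the median log2 change of the members was -0.08. Oog4 averaged 881 ± 241.2 CPM in in vitro young and 956 ± 188 CPM in in vivo young (-0.11, SE 0.17, adjusted p = 0.894). For Oog3 the change was 0.03 with an SE of 0.84, so a difference of 1 log2 unit in either direction could have been missed for this gene with absent libraries.

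Genes of pathways tied to PRAME proteins in other systems were called in both directions. Of 14 tested genes of the cullin-2 ligase, AA against YY had 2 higher and 3 lower, where 27.5% of all genes tested were called. Whether this list or those below stood out from all genes was not tested. Cul2, the scaffold, was higher (log2 change 0.81, SE 0.17, edgeR adjusted p = 0.000305), as was the substrate receptor Lrr1 (0.37, adjusted p = 0.00189), and the substrate receptor Fem1b was lower (-0.61, adjusted p = 0.0313). Cul2 was lower in AY than in AA (-0.70, adjusted p = 0.0285), and Klhdc2, another substrate receptor, was higher in AY than in AA (0.47, adjusted p = 0.0338) and than in YY (0.54, adjusted p = 0.0323). In YY against in vitro young, the receptor Klhdc3 was higher (0.62, adjusted p = 0.00465) and the receptor Appbp2 lower (-0.63, adjusted p = 0.0186). Over all genes tested, 6.59% were called in AY against AA, 1.62% in AY against YY and 2.48% in YY against in vitro young.

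Of 6 tested retinoic acid genes, AA against YY had 0 higher and 2 lower: Crabp2, a retinoic acid carrier (-0.48, edgeR adjusted p = 0.0041), and Rdh10, a retinol dehydrogenase (-0.44, adjusted p = 0.0283). The 6 genes of the UHRF1 and DNA methylation list had 2 higher and 3 lower. Tet3, which oxidises methylcytosine, fell most (-1.04, SE 0.12, adjusted p = 1.89e-07), followed by the maintenance methyltransferase Dnmt1 (-0.73, adjusted p = 0.000319) and Uhrf1 (-0.53, adjusted p = 0.00517). Tet3 was higher in AY than in AA (0.67, adjusted p = 0.0035). Of 5 tested oocyte transcription factors, 0 were called in AA against YY and 1 in AY against AA (Lhx8, 0.39, adjusted p = 0.0237). The share called over all genes was 27.5% in AA against YY and 6.59% in AY against AA. In AY against YY, none of the retinoic acid, methylation or transcription factor genes was called by edgeR, and in in vitro against in vivo young none of the 4 lists had a call.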

How the data were processed

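Counts per gene of 45 single-oocyte libraries were analysed. The authors deposited whole-number read counts per gene, not normalized. The aligner STAR 2.7.8a, the counter HTSeq 0.11.0 and the build mm39 are named, per the submitters' processing notes, and per the labels' protocols the libraries came from amplified cDNA of single oocytes. Strand use and the treatment of shared reads are not given in the sources used here. The reads carry no molecular identifiers.

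Groups came from the titles. The members and gene lists were chosen with earlier results of these data known. Levels were tested over the whole table with edgeR 4.0.16 (R 4.3.3, TMM, filterByExpr with a minimum count of 10 and a minimum total of 15, robust quasi-likelihood) and Benjamini-Hochberg adjustment, with an adjusted p under 0.05 called. AA, AY and YY shared 1 fit, and YY and the controls another. Log2 changes are given with SE from the F statistic. Presence meant 5 or more counts, tested with Fisher's exact test (scipy). No p is given for counts summed over members. DESeq2 1.42.0 and limma 3.58.1 (voom) were alternatives. Both tests were tested on simulated data. Every detected member could be named, with full values for the 10 of highest mean, up to 8 called per comparison and every on/off gene. Of other lists, up to 3 called genes per comparison were named, those with the smallest p.

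Libraries of a group always differed by more than counting error (chi-square over degrees of freedom at least 1.98). Gene ends are given as the last base, since the end column of the table is 1 past it. Promoter sequences are those of RefSeq on GRCm38.p6, matched by symbol, and were not placed on mm39.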

Additional observations from a re-analysis of the deposited data

Results flagged for a closer look

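In groups of 6 or 8 libraries, the gap of the highest or lowest library to its neighbour was set against the range of the group (Dixon's criterion, which chance passes in about 1 group of 20). Of 60 such groups of values, over the 18 tested members, the members detected and the family's share of counts, 8 had an outlying library. All 8 were in in vitro young and in only 2 of its libraries. Replicate 2 was low for Oog3 (0 CPM, nearest 1923), Oog2 (255 CPM, nearest 478), Pramel25 (1164 CPM, nearest 1803) and Pramel29 (1049 CPM, nearest 1636) and high for Pramel27 (745 CPM, nearest 544). Replicate 1 was high for Pramel48 (136 CPM, nearest 0), Pramel34 (2092 CPM, nearest 892) and Pramel47 (186 CPM, nearest 71.9). Replicate 2 is the 1 in vitro young library without Oog3, and replicate 1 the 1 with Pramel48, so the 8 values belong to the co-occurring states described above and are not 8 separate events. Values are TMM-scaled CPM.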

How the results depend on the processing

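The share of all genes called in the same fit stands in parentheses. Members called in AA against YY (9) came to 15 of 39 with no filter on low counts (10.3%), 5 with the pattern as a random block (12.7%), 0 with the libraries of a pattern summed (0.0173%), 1 against YY replicates 1 to 5 alone (5.43%) and 15 against YY replicates 6 to 11 alone (38.1%), and to 8 to 11 when 1 library was left out. In AY against AA (2), the count was 4 with voom quality weights (9.74%), 5 with the replicate block (12.6%), 1 with the pattern as a random block (0.938%), 0 with patterns summed (0.00864%), 1 with all 45 libraries in 1 fit (5.59%), and 1 to 2 with 1 library left out. In AY against YY (0) it was 2 against YY replicates 6 to 11 alone (10.3%). In YY against in vitro young (1) it was 3 with DESeq2 (4.62%), with no filter (1.01%) and with all 45 libraries in 1 fit (4.13%), 5 with voom quality weights (6.08%), 6 with YY replicates 6 to 11 alone (9.0%) and 0 with patterns summed (0.0%). Patterns summed leave 2 to 4 sums per group, and the causes of the other shifts were not tested. The difference in members detected per oocyte was 0.621 (10 counts), 0.795 (thinned counts) and 3.98 (1 count) against 1.53 for AA minus YY, -2.83 (1 count) against -1.0 for AY minus AA, 0.0455 (thinned counts) and 1.15 (1 count) against 0.53 for AY minus YY, 0.33 (thinned counts) and 0.42 (10 counts) against 0.136 for YY minus in vitro young, and -0.125 (10 counts) and -0.25 (thinned counts) against -0.375 for in vitro minus in vivo young. Its sign turned for AY minus YY with 10 counts (-0.379), for YY minus in vitro young with 1 count (-2.44) and for in vitro minus in vivo young with 1 count (0.25). The log2 change of Oog3 in AA against YY turned to -1.12 in the random-block fit. The other alternatives left each count within 1.5 times, and presence gave no call of a member under any. Outside AA against YY, the group sizes left presence little room for a call. Same-numbered libraries did not pair: their correlations ran from -0.125 to 0.21 among AA, AY and YY (4 of 23 over 0.1) and from -0.22 to 0.24 in the controls' fit (7 of 24), and 5 of 28 and 6 of 24 libraries correlated best with their own number. The replicate block gave 8 calls in AA against YY and 1 in YY against in vitro young. At this depth the 6 rare members reached highest counts of 5 to 25 per library, and thinning to the smallest library gave a mean of 18.2 members per AA oocyte, against 19.2 without thinning.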
